A study of Homo sapiens with 8 samples.

Results

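Fibroblast growth factor (FGF) signalling was examined here through the acetylation of its genes, 4 receptors (FGFR1, FGFR2, FGFR3 and FGFR4) and 6 ligands (FGF2, FGF7, FGF8, FGF9, FGF10 and FGF19), in human pancreatic progenitors (PPs). These 10 genes, of 20007 protein-coding genes in GENCODE release 44, were chosen by name as a family and selected on H3K27ac peak values of the same libraries, among them a peak near the FGF9 start listed with I-BET151 alone. Their values are therefore given as descriptions, with no test on them. For each gene, all H3K27ac peaks were collected over its body and the 50 kb flanking it at both ends. The PPs were derived from the human embryonic stem cell line MEL1, which the study's methods give as MEL1 INS GFP/W, a line with GFP placed at the insulin gene, and were kept in EF6 medium (B27, EGF, bFGF and the TGFβ inhibitor 616452). Control cells received the solvent DMSO and treated cells received 1 μM I-BET151 for 7 days. I-BET151 blocks the bromodomains of BET proteins, which read acetylated lysines. bFGF, the protein product of FGF2, was thus supplied to both groups. H3K27ac, acetylation of lysine 27 of histone H3 at active promoters and enhancers, was measured by ChIP-seq in 2 DMSO and 2 I-BET151 libraries, each with its own deposited peak list; the 4 inputs came without a list. Nothing in the labels says whether replicates were separate cultures, so the spread between them may be technical.

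FGFs are secreted proteins that bind receptor tyrosine kinases together with heparan sulfate or, for the endocrine FGFs, with a Klotho protein. Bound receptors pair up and phosphorylate each other, and the adaptor FRS2 passes the signal to RAS and ERK. In the embryo the pancreatic mesenchyme secretes FGF10 and FGF7, which act through the epithelial IIIb form of FGFR2 and keep PPs dividing.

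The 4 lists held 53053 peaks, from 12312 to 14248 a library. ChIP depth was estimated at 7.96 and 9.84 M reads (M, mega) for DMSO replicates 1 and 2. For I-BET151 replicates 1 and 2 the estimates were 7.76 and 8.04 M. They took the lowest input level recovered from the peaks' fold and p-value. They also assumed a genome of 2.7e9 bases and the narrowest listed peak (247 to 272 bp) as the fragment length. All values scaled to depth rest on these estimates. The chromatin carried peaks at PP genes. Of 10 PP markers, 9 had a peak within 3 kb of a start in every library, among them PDX1, NKX6-1 and SOX9, and PTF1A had none in any library. Among 20007 protein-coding genes, 9398 had such a peak in every library. Of 8 endocrine markers 0 had such a peak, and of 5 pluripotency markers 1, LIN28A, had one. Of 12 mesenchymal markers 2, PDGFRB and VIM, had one in all 4 libraries, and so did APOA1 and CDX2 of 7 hepatic and intestinal markers. Coverage at the PP markers was itself higher with I-BET151 at 6 of the 9 with a peak in the window and lower at 0, beside 12.5% higher and 44.4% lower among all genes with a peak. Mesenchymal markers were higher at 1 of 5 and lower at 3 of 5. At their promoters, VIM was higher both by fold over input and by reads scaled to depth, and PDGFRB was higher by fold and lower by scaled reads. By scaled reads the PP marker promoters were higher at 9 of 9. Among all own promoters with a peak in 4 libraries 26.4% were higher and 30.0% lower. The part of these shifts in the values at FGF genes was not tested.

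Sequences of the regions listed in a single group are shown first. At FGF9 peaks were listed only with I-BET151, and at FGF19 a pair of peaks was listed only with DMSO. The following lines give 200 bases around the strongest summit of each such region outside exons, from hg38 and in the direction of the gene, with CpG dinucleotides in capitals. The first lies upstream of FGF9 (chr13:21670050-21670249, plus strand), the second in an FGF9 intron (chr13:21675417-21675616, plus strand), the third in an FGF19 intron (chr11:69700689-69700888, minus strand) and the last upstream of FGF19 (chr11:69706392-69706591, minus strand).
FGF9 upstream: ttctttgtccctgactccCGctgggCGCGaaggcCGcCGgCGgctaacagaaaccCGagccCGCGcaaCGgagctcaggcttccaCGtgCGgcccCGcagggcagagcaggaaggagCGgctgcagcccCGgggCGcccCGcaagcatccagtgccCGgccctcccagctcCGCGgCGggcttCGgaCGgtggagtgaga
FGF9 intron: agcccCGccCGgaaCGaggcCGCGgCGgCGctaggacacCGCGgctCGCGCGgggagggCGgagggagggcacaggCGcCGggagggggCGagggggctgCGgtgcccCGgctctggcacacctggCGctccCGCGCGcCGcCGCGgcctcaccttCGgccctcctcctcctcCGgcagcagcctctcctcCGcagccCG
FGF19 intron: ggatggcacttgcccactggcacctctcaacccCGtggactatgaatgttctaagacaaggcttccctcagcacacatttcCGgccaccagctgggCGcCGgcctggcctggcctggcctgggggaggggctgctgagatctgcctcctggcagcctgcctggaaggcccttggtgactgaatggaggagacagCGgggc
FGF19 upstream: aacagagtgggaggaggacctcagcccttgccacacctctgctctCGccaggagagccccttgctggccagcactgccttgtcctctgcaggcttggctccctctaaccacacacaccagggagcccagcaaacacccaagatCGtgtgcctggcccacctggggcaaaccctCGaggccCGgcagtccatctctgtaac

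The FGF9 stretches held 23 and 29 CpGs and the FGF19 stretches 5 and 4. A further FGF9 region, whose summit lay in an untranslated exon and is not printed, held 17 CpGs in its 200 bases. Over the same length the median region called in all 4 libraries held 20 CpGs, the median gained region 18 and the median lost region 10. Here a region is gained where I-BET151 replicates 1 and 2 list a peak and the DMSO replicates list none, and lost in the reverse case. The regions gained at FGF9 were thus near or above the CpG content of shared regions, and those lost at FGF19 lay below the lower quartile of 6 CpGs among lost regions.

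Promoters with a peak in all 4 libraries belonged to FGFR1, FGFR2, FGFR3, FGFR4 and FGF2. RefSeq (GRCh38.p14) promoter windows, 250 bases before to 50 after the start, matched 6 of the 10 genes by symbol (FGFR2, FGFR3, FGFR4, FGF2, FGF7 and FGF10). The bases of these windows that lie before the first annotated exon are printed for the genes with a shared promoter peak. In these lines CpGs are again in capitals. FGFR2 held 40 CpGs in 236 printed bases, FGF2 17 in 101 and FGFR4 21 in 240. Reads at these promoters were higher with I-BET151, at FGFR4 slightly. FGFR3, whose groups overlapped, held 40 in 250. FGFR4 was thus the least dense in CpGs, and FGFR3 was near FGFR2 and FGF2. The printed bases of FGF2 lie within its region, those of FGFR4 and FGFR3 only in part, and those of FGFR2 just upstream of it. The strongest summits of these promoters lay inside the genes. The windows are chr10:121598459-121598694 (minus strand), chr4:122826581-122826681 (plus), chr4:1793043-1793292 (plus) and chr5:177086665-177086904 (plus).
FGFR2: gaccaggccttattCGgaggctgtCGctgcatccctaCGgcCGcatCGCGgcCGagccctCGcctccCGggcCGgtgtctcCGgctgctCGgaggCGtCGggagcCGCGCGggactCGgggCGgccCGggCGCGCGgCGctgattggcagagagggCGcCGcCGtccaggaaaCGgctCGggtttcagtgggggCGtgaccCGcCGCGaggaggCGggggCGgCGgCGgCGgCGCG
FGF2: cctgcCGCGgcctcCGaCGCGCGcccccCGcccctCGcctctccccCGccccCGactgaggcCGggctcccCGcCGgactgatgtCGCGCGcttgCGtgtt
FGFR3: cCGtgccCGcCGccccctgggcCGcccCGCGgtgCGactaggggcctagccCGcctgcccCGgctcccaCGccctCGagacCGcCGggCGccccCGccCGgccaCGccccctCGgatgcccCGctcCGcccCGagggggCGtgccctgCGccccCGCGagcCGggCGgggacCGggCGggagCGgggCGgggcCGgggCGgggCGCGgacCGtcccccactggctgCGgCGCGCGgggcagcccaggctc
FGFR4: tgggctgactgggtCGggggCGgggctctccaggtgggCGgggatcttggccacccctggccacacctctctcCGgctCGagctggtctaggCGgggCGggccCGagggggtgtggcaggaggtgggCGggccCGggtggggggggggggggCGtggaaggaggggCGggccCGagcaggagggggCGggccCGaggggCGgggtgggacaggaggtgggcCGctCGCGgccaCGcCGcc

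Over the whole 300 bases these promoters held 52 CpGs (FGFR2), 41 (FGF2), 51 (FGFR3) and 30 (FGFR4), against 13 at FGF10 and 4 at FGF7, which had no peak, and a median of 13 over 27305 gene promoters. At FGF10 all 250 bases before the RefSeq start lie in annotated exons of the gene, so that part of its window is exon sequence. The GC box (GGGCGG on either strand) was found in 4 of the 6 windows, those of FGFR2, FGFR3, FGFR4 and FGF2, with 5, 8, 7 and 3 matches, and in 44.5% of all promoters. For 5 more motifs, also read on both strands, 0 of the 6 windows had a match. The AT-rich core promoter element, spelled TATAAA, occurred in 12.02% of all promoters. The ETS core, spelled CCGGAAG, occurred in 10.6%. The letters TGANTCA, the site of AP-1, were found in 7.72% and those of SOX factors, AACAAT, in 10.4%. The GATA letters, AGATAA, were found in 10.5%. The FOXA letters, TGTTTAC, found in 3.44% of promoters, and the RBPJ core, spelled TGGGAA and found in 24.4%, each occurred in 1 of 6, FGF10. In the 200 base stretches, 2 GC boxes lay in the FGF9 intron and 1 beside the exonic FGF9 summit, which also had an RBPJ core, and the other printed stretches had none of the 8 motifs. Of all regions 53.8% held a GC box and 13.1% an RBPJ core. A match describes letters and no bound factor, and matches could overlap.

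Acetylated length did not move one way over the family. Of the 10 genes, 8 had a peak in the window in at least 1 library, and FGF7 and FGF10 had none in any library. The covered length was higher in both I-BET151 libraries than in both DMSO libraries at FGFR1, FGFR2 and FGF9 (3 genes), lower at FGFR3 and FGF19 (2 genes), and overlapped at FGFR4, FGF2 and FGF8. Across 15184 genes with a peak in the window, 12.5% were higher and 44.4% lower by the same rule. In bulk chromatin, acetylation in more cells and more acetylation per cell cannot be told apart. Averaged over the 10 loci, 2.57 and 2.62 kb were covered with DMSO and 2.76 and 2.66 kb with I-BET151, so that the groups did not overlap. DMSO libraries averaged 2.59 ± 0.0354 kb and I-BET151 libraries 2.71 ± 0.0684 kb (SD, n = 2), a difference of 0.118 kb a locus. Over all genes with a peak the mean difference was −0.270 kb, whereas the 10 loci include FGF7 and FGF10 without one. The mean over the 10 loci was positive only through FGF9 (2.41 kb), a gene whose peak entered the selection. Medians over genes with a peak were 0.119 kb for the family and −0.094 kb for all genes. With 2 libraries a group the smallest two-sided exact permutation p is 0.333, so no single value here could pass a threshold of 0.05.

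**Figure D1:**
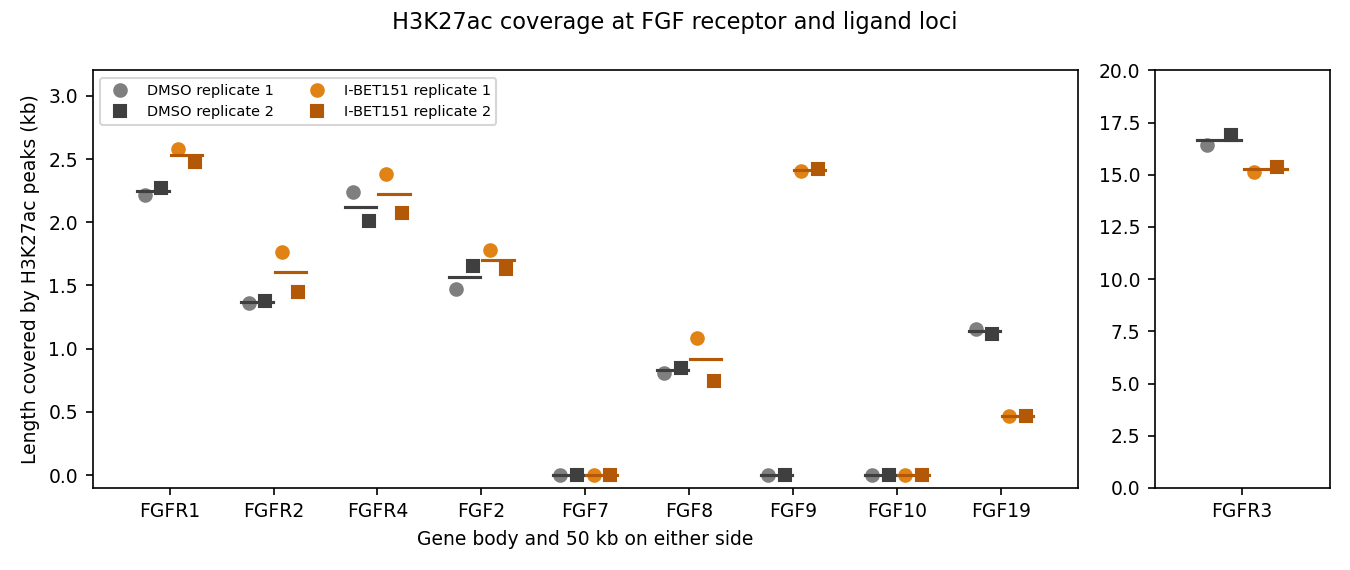
Length covered by H3K27ac peaks (kb, y axis) over each gene and its 50 kb flanks (x axis), with FGFR3 on its own scale. Points are the 4 libraries and bars the group means. FGF9 is at 0 in both DMSO libraries and at 2.40 and 2.42 kb with I-BET151, and FGF19 falls from 1.15 and 1.12 kb to 0.465 and 0.466 kb.

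Among the receptors, FGFR1 and FGFR2 gained height at promoters that were already marked. FGFR1 serves mesenchymal and neural tissues and is the main receptor for FGF2. Its window contained 2 regions, both called in all 4 libraries: its own promoter (chr8:38467550-38468546, summit in an untranslated or noncoding exon) and the promoter of the neighbouring gene NSD3. At the FGFR1 promoter the summit held 137 and 164 ChIP reads in DMSO replicates 1 and 2 and 184 and 230 in I-BET151 replicates 1 and 2. Exact Poisson 95% intervals, which cover counting error only, ran from 115 to 162 and 140 to 191 reads in DMSO and from 158 to 213 and 201 to 262 in I-BET151.

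Scaled to depth as RPM, the reads at the summit per M ChIP reads of the library, the FGFR1 summit held 17.2 and 16.7 in DMSO and 23.7 and 28.6 in I-BET151. Both treated libraries lay above both controls, at 26.2 ± 3.46 against 16.9 ± 0.383 (SD, n = 2), a ratio of 1.54. In log2 the difference was 0.62, at percentile 98.2 of 9194 own promoters. Ranked by p-value from the strongest, the peak stood at 99.1% and 86.0% of the lists of DMSO replicates 1 and 2 and at 68.2% and 46.6% of those of I-BET151 replicates 1 and 2, lists that differ in length. It widened from 582 and 708 bp to 997 and 947 bp.

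FGFR2 carries the epithelial IIIb form that receives mesenchymal FGF10 and FGF7. Its promoter (chr10:121596958-121598437, summit in an untranslated or noncoding exon 299 bp inside the gene) was the only region in the window called in all 4 libraries. The summit held 24.6 and 24.6 RPM in DMSO and 36.6 and 40.7 in I-BET151. The groups were apart, at 24.6 ± 0.0175 and 38.6 ± 2.88 (SD, n = 2), a ratio of 1.57 and a log2 difference of 0.65 at percentile 98.4. A second region, in an intron 1554 bp from an internal start (chr10:121524552-121524857), was listed only in I-BET151 replicate 1, with 25 reads at its summit.

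At FGFR4, a receptor of foregut epithelium and liver and the main receptor for FGF19, the promoter (chr5:177086757-177088063) held 36.9 and 34.5 RPM in DMSO and 37.9 and 40.2 in I-BET151. These groups did not overlap but were close, with a ratio of 1.09 and a log2 difference of 0.13 at percentile 72.5. Before scaling to depth the reads were 294 and 339 in DMSO and 294 and 323 in I-BET151 and overlapped. The remaining region of the window was the promoter of NSD1, with 30.9, 26.3, 36.2 and 35.5 RPM in the order DMSO 1 and 2 and I-BET151 1 and 2.

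FGFR3 had the broadest acetylated domain of the family. FGFR3 is known as a brake on bone growth and is also expressed in epithelia. Peaks covered 16.4 and 16.9 kb of its window with DMSO and 15.1 and 15.4 kb with I-BET151. Both treated libraries were below both controls, with a mean difference of −1.41 kb, and its covered length lay at percentile 99.9 of all genes with a peak. The window held 12 of the 28 regions found over all 10 genes, and all 12 were called in every library. The shortfall was spread over the window. The FGFR3 promoter had 3.61 and 3.52 kb with DMSO and 3.09 and 3.10 kb with I-BET151. The LETM1 promoter and an intergenic region 2670 bp from an annotated TACC3 start together had 2.24 and 2.63 kb, then 1.81 and 2.18 kb. The 8 regions away from starts had 10.6 and 10.8 kb, then 10.2 and 10.1 kb. With 10 kb on either side the difference was −0.621 kb.

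By RPM at the strongest peak, 2 of the 12 regions of that domain were higher with I-BET151 (16.7%), 4 were lower (33.3%) and 6 overlapped. Of 10048 regions called in all 4 libraries and resolved to reads, 29.8% were higher and 31.1% lower, so the share of lower regions was near that of the series and the share of higher ones below it. The lowest ratio, 0.556, belonged to an intergenic region 24749 bp upstream (chr4:1768353-1769335), with 23.2 and 22.3 RPM in DMSO and 11.5 and 13.8 in I-BET151. Its direct neighbour 26191 bp upstream (chr4:1765894-1768142), the strongest region of the window away from starts, held 47.6, 41.3, 44.7 and 47.2 and overlapped. The highest ratio, 1.504, belonged to a region 8378 bp upstream (chr4:1784504-1786334), with 21.0 and 15.3 in DMSO and 28.5 and 26.1 in I-BET151.

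At the FGFR3 start itself a pair of regions lay on either side of the 5′ end of the gene. The upstream region (chr4:1792193-1793109, summit 492 bp before the gene) held 28.5 and 25.4 RPM in DMSO and 18.6 and 24.3 in I-BET151 and was lower, with a ratio of 0.794. The region inside the gene (chr4:1793297-1796006, summit in a coding exon) held 47.4 and 40.6 in DMSO and 40.7 and 46.3 in I-BET151 and overlapped, with a ratio of 0.9899. An intronic region 4999 bp into the gene (chr4:1797261-1798350), counted above among the lower ones, fell in RPM from 12.6 and 12.6 to 8.77 and 9.21. By fold over input this region was instead higher, at 1.866 and 2.204 in DMSO and 2.512 and 2.555 in I-BET151. Its peaks were among the weakest listed, at ranks of 99.94% and 98.94% in DMSO and 99.27% and 99.35% in I-BET151. By RPM at its strongest peak the FGFR3 promoter was the highest of the receptor promoters in DMSO, ahead of FGFR4 with no overlap, whereas by fold over input in DMSO FGFR3 (5.58 and 6.56) and FGFR4 (5.39 and 7.75) overlapped. It was the only receptor promoter whose groups overlapped in RPM.

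**Figure D2:**
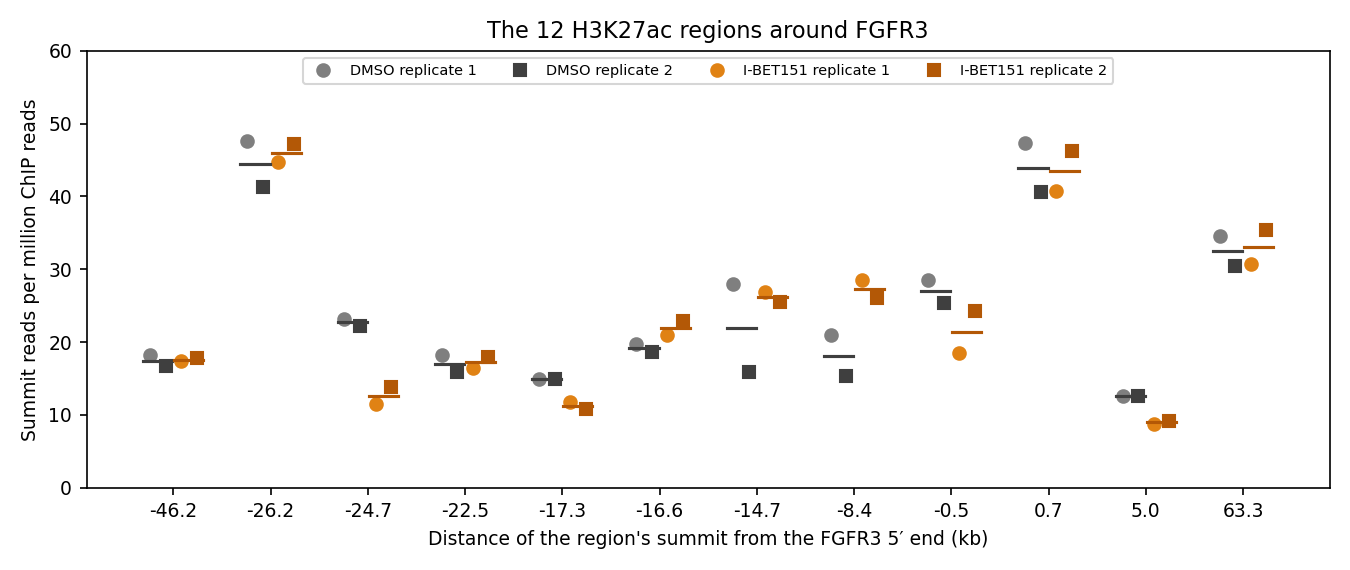
Summit RPM (y axis) at the strongest peak of each of the 12 regions in the FGFR3 window, placed in order of distance from the 5′ end of FGFR3 (x axis, kb, evenly spaced). Points are libraries and bars group means. The region at −24.7 kb is lower and the one at −8.4 kb higher in both I-BET151 libraries.

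Of the 6 ligands, FGF2 was the only one with a promoter peak in all 4 libraries. FGF2 is exported from cells without a classical signal peptide and was a supplement of the medium. Its promoter region (chr4:122826570-122827815, summit in a coding exon) held 17.7 and 18.1 RPM in DMSO and 24.4 and 27.1 in I-BET151. The treated libraries were above both controls, at 25.7 ± 1.95 against 17.9 ± 0.268 (SD, n = 2), a ratio of 1.44 and a log2 difference of 0.52 at percentile 97.0. The covered length overlapped, at 1.47 and 1.66 kb with DMSO and 1.78 and 1.63 kb with I-BET151. The region of NUDT6, transcribed on the opposite strand over the end of FGF2, held 26.9, 24.7, 26.0 and 26.6 RPM and overlapped.

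Taking the 5 shared promoters as a set, I-BET151 lay above DMSO in RPM at 4 (FGFR1, FGFR2, FGFR4 and FGF2) and below at 0. Of all own promoters called in 4 libraries 26.4% were higher and 30.0% lower. The median log2 difference was 0.52 over the 5 and −0.0056 over 9194 genes. FGFR2 and FGFR1 had the highest ratios of the 5, and FGFR4 lay closest to FGFR3.

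The fold over local input, the value that the peak caller wrote, gave a wider picture. It was 1.90, 3.08, 3.64 and 5.85 at FGFR1, in the order DMSO 1 and 2 and I-BET151 1 and 2. At FGFR2 it was 3.26, 4.64, 5.97 and 8.42. At FGF2 it was 2.77, 4.15, 4.69 and 5.26. By this measure FGFR3 (5.58, 6.56, 7.93 and 7.32) and FGFR4 (5.39, 7.75, 9.95 and 9.01) were higher too, so that 5 of 5 promoters were higher and 0 lower, against 24.7% and 15.7% of 9398 genes. The median log2 difference in fold was 0.55 over the 5 and 0.074 over all genes.

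Fold divides the reads by the local input level, and that level differed between libraries at these promoters. At FGFR3 it was 81.6 and 64.4 times the genome-wide input level in DMSO and 51.6 and 65.1 times in I-BET151, and at FGFR4 65.3 and 45.3 against 37.3 and 44.7 times. The genome-wide level was taken as the lowest recovered. Over all peaks the median was 42.6 and 37.8 times that level in DMSO and 38.5 and 40.7 times in I-BET151. Between fold and RPM the log2 difference went from 0.33 to −0.013 at FGFR3 and from 0.55 to 0.13 at FGFR4, and from 0.93 to 0.62 at FGFR1. Without DMSO replicate 1, which had the highest input level at all 5 promoters, the log2 difference in fold was 0.59 at FGFR1, 0.26 at FGF2, 0.29 at FGFR4 and 0.22 at FGFR3. It was 0.84 at FGF2 without DMSO replicate 2 and 0.59 at FGFR1 without I-BET151 replicate 2.

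**Figure D3:**
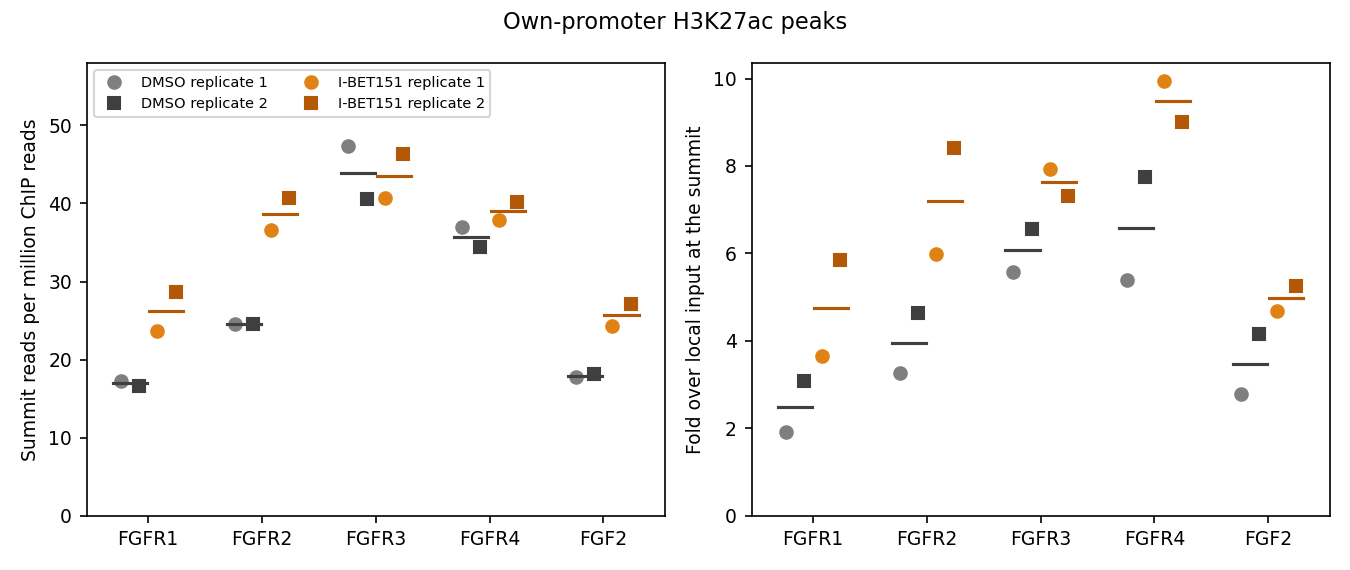
Own-promoter peaks called in all 4 libraries: summit RPM (left) and fold over local input at the summit (right). Points are libraries and bars group means. FGFR1, FGFR2 and FGF2 are apart on both scales, and FGFR3 overlaps in RPM (40.6 to 47.4 in DMSO, 40.7 to 46.3 in I-BET151).

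**Figure D4:**
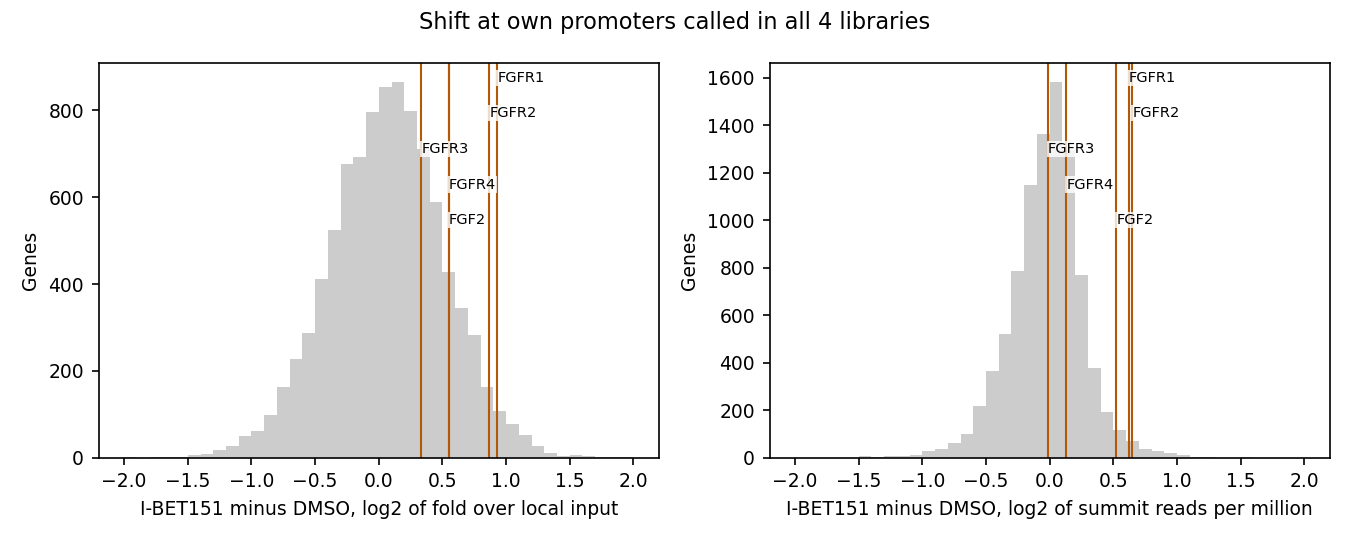
Distribution over genes (y axis, number of genes) of the difference between I-BET151 and DMSO in log2 fold over input (left) and log2 summit RPM (right) at own promoters called in all 4 libraries, with values beyond 2 drawn at the edge. Lines mark the FGF genes. In RPM FGFR1, FGFR2 and FGF2 lie at percentiles 98.2, 98.4 and 97.0 and FGFR3 at 48.7.

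FGF9 went from no listed peak to an acetylated start. FGF9 signals mainly through the mesenchymal IIIc receptor forms and is a mitogen of embryonic epithelium and mesenchyme in lung, gonad and gut. In its window 0 kb was covered in both DMSO libraries and 2.40 and 2.42 kb in I-BET151. Such a change, with no peak under DMSO and a peak in each I-BET151 replicate, was seen in 0.896% of genes with a peak in the window. At the start itself the change was seen in 1.65% of 11238 own promoters with a peak in any library, and the reverse in 4.05%. A peak near this start entered the selection of the genes. These shares, and that of gained regions below, are therefore background and no test of FGF9.

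The FGF9 signal fell into 3 separate regions, and all 3 were gained, against 2.81% of 15752 regions in the series. The first (chr13:21669856-21670407) was intergenic, 923 bp before the gene, and its summit held 219 and 266 reads, or 28.2 and 33.1 RPM. The second (chr13:21673538-21674719) lay over an untranslated or noncoding exon, 120 bp from an annotated internal start, with 236 and 237 reads, or 30.4 and 29.5 RPM. The third (chr13:21674983-21675738), in an intron, had 126 and 166 reads, or 16.2 and 20.7 RPM.

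Both replicates thus listed the same 3 regions. In fold over input they were close in the first region (7.89 and 8.11) and the second (5.84 and 5.69) and apart in the third (3.87 and 10.2), where the local input was 42.0 and 18.2 times the genome-wide level. The first region held more RPM than the FGFR1 and FGF2 promoters in the same libraries. Absence from the DMSO lists bounds the signal and does not set it at 0. At the input level of the treated libraries, a summit would have been listed from 69 and 79 reads in DMSO replicates 1 and 2 in the first region, from 84 and 99 in the second and from 58 and 68 in the third. These limits correspond to 8.67 and 8.03, 10.6 and 10.1, and 7.29 and 6.91 RPM. The input level of the DMSO libraries at FGF9 was not known, so the limits rest on that of the treated libraries.

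FGF19 showed the reverse on a smaller scale. FGF19 is an endocrine FGF of the ileum that acts on liver through FGFR4 and β-Klotho and restrains bile acid synthesis. Peaks covered 1.15 and 1.12 kb of its window with DMSO and 0.465 and 0.466 kb with I-BET151. Both treated libraries were below both controls, with a mean difference of −0.672 kb. Of the 3 regions, 2 were lost, against 8.60% of all regions. The intronic one (chr11:69700657-69700977), 3233 bp inside the gene, held 95 and 131 reads in DMSO, or 11.9 and 13.3 RPM. The upstream one (chr11:69706333-69706664), 2470 bp before the gene, held 85 and 99 reads, or 10.7 and 10.1 RPM.

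Both FGF19 regions were narrow, low in RPM and poor in CpG beside those at FGF9. In fold over input they lay within the range of 3.87 to 10.2 at FGF9, with 7.56 and 7.20 upstream and 5.33 and 4.94 in the intron. In I-BET151 replicates 1 and 2 a summit would have been listed from 46 and 49 reads in the intron and from 31 and 34 upstream at the input level of the DMSO libraries, that is from 5.93 and 6.10 and from 4.00 and 4.23 RPM. The 2 regions lie on either side of the FGF19 start and outside 1 kb of it, and only the upstream one lies within 3 kb. The third region was the promoter of LTO1, 28899 bp away, which stayed listed in all 4 libraries at 30.4 and 25.6 RPM in DMSO and 20.9 and 24.1 in I-BET151. What was left under I-BET151 in the FGF19 window was therefore the promoter of another gene.

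**Figure D5:**
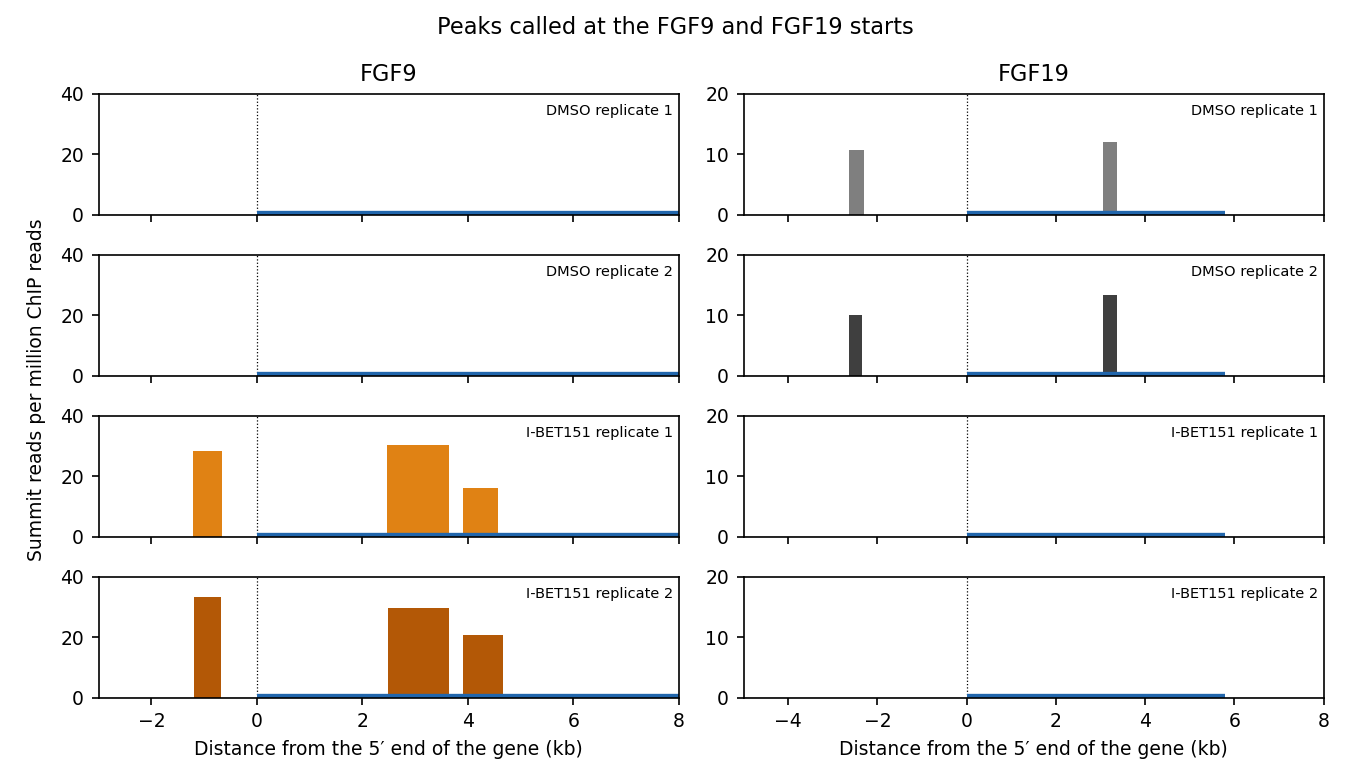
Peaks listed near the FGF9 and FGF19 starts in each of the 4 libraries, with bar width the peak interval, bar height the summit RPM and the x axis the distance from the 5′ end of the gene (kb), the gene body in blue. FGF9 has 3 peaks in each I-BET151 library and 0 in DMSO, and FGF19 has 2 near its start in each DMSO library and 0 in I-BET151.

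Of the remaining ligands, FGF7 and FGF10, the mesenchymal ligands of FGFR2, had no peak in or within 50 kb of the gene in any library. FGF8, a ligand of early embryonic patterning, had no region of its own in DMSO. Its window held the promoter of OGA (32.9 and 32.2 RPM in DMSO, 26.8 and 30.0 in I-BET151), and a peak in I-BET151 replicate 1 alone (chr10:101783031-101783378) that was 216 bp from the NPM3 start and 2788 bp from that of FGF8. The covered length at FGF8 overlapped, at 0.809 and 0.851 kb with DMSO and 1.09 and 0.746 kb with I-BET151. A shared promoter peak was thus present at 4 of 4 receptors and at 1 of 6 ligands, beside 9398 of 20007 protein-coding genes. The receptors have 8 to 47 annotated starts and the ligands 1 to 6. A gene with more starts offers more places for a summit within 3 kb of one, so the 2 counts are not on equal terms.

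Regions near starts of neighbouring genes served as a local comparison. Of 28 regions, 12 lay within 3 kb of a start of the FGF gene, 7 within 3 kb of a start of another gene only and 9 away from starts. The 12 include the peak listed in I-BET151 replicate 1 alone, 2788 bp from the FGF8 start and 216 bp from that of NPM3. The region counted for TACC3 was intergenic, 2670 bp from an annotated start. The 7 regions near starts of other genes only were called in all 4 libraries. In RPM 1 was higher (NSD1), 2 were lower (OGA and LTO1) and 4 overlapped (NSD3, TACC3, LETM1 and NUDT6). Their ratios ran from 0.804 to 1.25. Those of the 6 regions at own starts called in all 4 libraries ran from 0.794 at the upstream FGFR3 region to 1.57 at FGFR2.

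Of 12 other secreted FGF ligands, 7 had a peak in the window, and coverage was higher at 2 and lower at 3. FGF18, a ligand of bone and lung growth, was the only one with its own promoter peak, with 16.7 and 11.99 RPM in DMSO and 29.8 and 32.4 in I-BET151. Its covered length went from 2.74 and 2.56 kb to 4.23 and 4.42 kb. FGF22 lost the most, from 5.67 and 5.83 kb to 3.16 and 2.87 kb, with no peak at its own start. FGF17 and FGF1 were lower (−0.228 and −0.075 kb). Of 4 FGF homologous factors, which stay inside the cell and bind sodium channels, FGF11 was lower (−1.46 kb) and FGF14 and FGF13 were higher by 0.318 and 0.188 kb.

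The partners of the receptors and the steps after them were counted in the same way. Of 21 coreceptors, decoys and heparan sulfate genes, 17 had a peak and 2 were higher (11.8%) and 7 lower (41.2%), near the 12.5% and 44.4% of all genes, the largest shifts being at the decoy receptor FGFRL1 (−1.57 kb), the syndecans SDC1 (−1.22 kb) and SDC3 (−0.575 kb) and the heparan sulfate enzyme NDST1 (−0.91 kb). Of 19 adaptors and RAS-ERK genes 3 were higher (15.8%) and 6 lower (31.6%). MAP2K2 (−2.98 kb), HRAS (−1.53 kb), the adaptor FRS3 (−1.45 kb) and MAPK3 (−1.28 kb) had the largest differences. Of 17 feedback and target genes 5 were higher (29.4%) and 4 lower (23.5%). The phosphatase gene DUSP4 (1.32 kb) and MYC (1.00 kb) were higher and EGR1 (−0.88 kb) and SPRED3 (−0.70 kb) were lower. By RPM, own promoters resolved in all libraries were higher at 11 of 14 feedback and target genes and lower at 1. Over all genes these shares were 26.4% and 30.0%. Among coreceptors, decoys and heparan sulfate genes 3 of 15 were higher and 3 lower. Among adaptors and RAS-ERK genes 4 of 16 were higher and 4 lower. By fold over input, 7 of the 14 feedback and target promoters were higher and 1 lower. Over all genes the shares by fold were 24.7% and 15.7%.

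Among 15 EGF receptors and ligands, the other growth factor family supplied in the medium, 10 had a peak in the window, and 3 were higher and 4 lower in coverage. EGFR was higher by 0.83 kb and NRG3 by 0.62 kb, and ERBB2 (−1.25 kb) and AREG (−0.695 kb) were lower. By fold, 5 of these genes had a promoter peak in all 4 libraries, 3 of them higher and 2 lower, beside 5 of 5 higher among the FGF genes. By RPM, 4 were resolved in all libraries, 3 of them higher and 1 lower, beside 4 of 5 higher and 0 lower among the FGF genes. ERBB2 was lower by fold and higher by RPM, at 38.7 and 35.7 in DMSO and 43.1 and 45.4 in I-BET151. The difference between the 2 families was not tested.

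Of the covered lengths, that at FGFR1 went from 2.22 and 2.27 kb to 2.58 and 2.48 kb, a difference of 0.285 kb that was 0.0975 kb with 100 kb on either side and 0.576 kb where only peaks with −log10 q of at least 5 were kept. That at FGFR2 went from 1.36 and 1.37 kb to 1.76 and 1.45 kb, a difference of 0.238 kb that was 0.0815 kb without I-BET151 replicate 1 and 0.394 kb without I-BET151 replicate 2.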

How the data were processed

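H3K27ac ChIP-seq lists of 2 DMSO and 2 I-BET151 libraries were analysed. According to the study's methods and processing notes, the authors aligned reads to hg38 with Bowtie2 (2.2.5), removed duplicates and called peaks per library with MACS2 (2.1.2). The deposited lists give each peak's interval, summit, fold over local input (a ratio), −log10 p and −log10 q as written by the peak caller. The deposited score was not used. Duplicate removal caps peak height, and the significance threshold hides weaker acetylation. Whole ChIP reads at each summit and the local input level follow from fold and p-value by the formula of MACS2, which resolved 98.6 to 99.2% of peaks (100% of peaks with a single solution were whole within 0.02). The recovery of reads was tested on simulated data, and the estimate of depth was not. Peaks overlapping by at least 1 bp formed a region, and own promoters are summits within 3 kb of an annotated start (GENCODE release 44). A value is called higher or lower where both I-BET151 libraries lie beyond both DMSO libraries. The genes and gene lists were chosen with earlier results of these data known. Named from each list were at most 4 genes, those with the largest differences in covered length among genes whose groups did not overlap. Named regions were own promoters, gained and lost regions and the strongest region away from starts, and others were named after their values were seen. Python (3.11.15), pandas (2.3.3) and scipy (1.17.1) were used.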

Additional observations from a re-analysis of the deposited data

How the results depend on the processing

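Of 213 values recomputed for 24 results under the alternatives, 196 stayed within the spread between replicates or, for counts, within 1.5 times, 16 moved further and 1, from groups that did not overlap, changed sign. That was the log2 difference at the FGFR3 promoter, −0.013 by RPM against 0.33 by fold. Of the 196, 5 also changed sign, all of them covered lengths whose groups overlapped. At FGF8 the difference of 0.086 kb was −0.088 kb with −log10 q of at least 5, −0.088 kb with equal numbers of top-ranked peaks and −0.084 kb without I-BET151 replicate 1. At FGFR4 the difference of 0.1025 kb was −0.012 kb without DMSO replicate 2 and −0.0535 kb without I-BET151 replicate 1. The mean difference in covered length was 0.220 kb a locus with 10 kb on either side. Counting peaks in place of length, 1 gene was higher and 1 lower. With 1 library left out at a time, the number of genes higher ran from 3 to 6 and the number of gained regions from 3 to 5, the highest of both (6 and 5) without I-BET151 replicate 2. The libraries share replicate numbers, but nothing in the labels ties same-numbered libraries, and the correlation of their deviations was 0.110 for covered length and 0.0118 for calls over regions. With the replicate block the mean difference was 0.118 kb and the genes higher were 4. Depth limits the gained and lost regions, since a summit of up to 10.6 RPM could go unlisted at FGF9 in DMSO.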
